A study of Homo sapiens with 16 samples.

Results

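The genes described here are ATF4 and 9 of its targets in the response to amino acid shortage: ASNS, TRIB3, CHAC1, DDIT3, DDIT4, SESN2, PSAT1, PHGDH and ATF5. They were chosen by name for their known place in this response, with earlier results of these data known. They were found by symbol in the table of 25221 genes. The 10 symbols gave 11 entries, because ATF5 stood there 2 times. RNA was measured in 2 human leukemia cell lines, MOLM13, an acute myeloid leukemia line of the monocytic type, and K562, an erythroid line that was raised from a chronic myeloid leukemia. Each line received either DMSO, the solvent control, or 20 µM Ro 08-2750 (Ro), which the study used as an inhibitor of the RNA-binding protein MSI2. Ro was added straight to the culture medium, treatment lasted 4 h, and the final DMSO content was 0.1%. Each of the 4 groups held 4 libraries, and the labels number them as pairs 1 to 4 within each line, giving 16 libraries in all. The comparisons ask how the genes changed with Ro in each line, whether the change differed between the lines, and how their levels differed between the DMSO libraries of the lines. Each line is a single established line, so a difference between them cannot be told apart from anything else that sets these cultures apart.

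ATF4 is a basic leucine zipper transcription factor. Its mRNA is translated poorly in unstressed cells and better when the initiation factor eIF2 is phosphorylated by one of the kinases that sense missing amino acids, endoplasmic reticulum stress, heme shortage or viral RNA. The protein then activates genes for amino acid synthesis, uptake and tRNA charging, together with feedback genes such as TRIB3 and growth restraints such as DDIT4 and SESN2. Leukemia cells are known to lean on this program for asparagine and serine supply.

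Libraries read the 3′ ends of mRNAs, so a count is close to a transcript count and does not scale with gene length. Levels are given as CPM, the counts per 1000000 of the scaled library total. Total counts ranged from 3143129 in K562 DMSO pair 2 to 43571060 in K562 DMSO pair 1, and the other small library was K562 DMSO pair 4 with 4383241. Summed over 8 markers of each line, MOLM13 libraries held 615 to 762 CPM of MOLM13 markers such as FLT3 and SPI1 and 4.86 to 8.08 CPM of K562 markers such as GATA1 and the fetal globin genes. K562 libraries held 1504 to 2872 CPM of their own markers and 147 to 296 CPM of the MOLM13 markers, of which HOXA9 was at 0 in all 8. The largest part of that MOLM13 marker sum was CSF1R, at 92.7 to 218 CPM in K562. Some listed markers did not separate the lines. CD33 held 8.67 to 24.8 CPM in MOLM13 and 8.80 to 17.9 CPM in K562. LYZ held 14.1 to 33.5 and 7.82 to 31.9 CPM, and the K562 marker EPOR 1.01 to 5.41 and 1.45 to 8.82 CPM. Same-numbered DMSO and Ro libraries deviated together in both lines, and both MOLM13 libraries of pair 4 stood apart from the other MOLM13 libraries. The main values of the set that rest on that pair are therefore given with and without it. Changes with Ro in the other gene lists are given only with it. Nothing in the labels says what the libraries of a pair share, or that pairs came from separate cultures, so p-values measure only the spread between these libraries, which may be technical.

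Promoter sequence of 2 of the genes is shown because ATF4 is known to act through a short element with the core TGATGNAA, the C/EBP-ATF response element. The 250 bases before each annotated start were searched on both strands for these letters, with no other motif. RefSeq (GRCh38.p14) gave 17 start windows for the 10 genes. The letters were found in the windows of ASNS and CHAC1, 2 of 10 genes, against 3.89% of 27305 genes and 3.14% of 35116 windows. The ASNS window lies at chr7:97872409-97872658 on the minus strand, and its match spans bases 68 to 61 before the start. The CHAC1 window lies at chr15:40953221-40953470 on the plus strand, with the match on the opposite strand at bases 209 to 202 before the start. Both are printed along the gene's strand with the matched letters in capitals. A match of letters is a description and no measurement of binding.
ASNS: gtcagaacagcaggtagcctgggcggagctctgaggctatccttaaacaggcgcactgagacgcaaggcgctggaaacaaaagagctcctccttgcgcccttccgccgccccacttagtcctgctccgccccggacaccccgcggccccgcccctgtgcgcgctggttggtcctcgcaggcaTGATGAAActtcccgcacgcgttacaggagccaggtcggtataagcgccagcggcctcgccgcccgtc
CHAC1: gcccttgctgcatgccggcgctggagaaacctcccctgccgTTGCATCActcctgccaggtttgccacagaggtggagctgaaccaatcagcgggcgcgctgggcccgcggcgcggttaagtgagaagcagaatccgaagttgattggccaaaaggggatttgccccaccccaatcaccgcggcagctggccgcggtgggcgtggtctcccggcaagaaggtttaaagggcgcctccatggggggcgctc

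ATF4 itself (Entrez 468, chr22:39520559-39522686) stood higher in MOLM13 than in K562. With DMSO the MOLM13 libraries of pairs 1 to 4 held 218, 332, 396 and 1202 CPM, and with Ro they held 270, 392, 386 and 972 CPM. K562 libraries held 118, 136, 122 and 113 CPM with DMSO and 134, 178, 135 and 146 CPM with Ro. Every MOLM13 library lay above every K562 library, pair 4 of MOLM13 lay far above the rest of its line, and within each line the DMSO and Ro values overlapped. In K562 all 4 pairs were higher with Ro, by 0.15 to 0.39 on the log2 scale, yet the fitted change of 0.28 (SE 0.13) in edgeR with the pair as a block had a Benjamini-Hochberg adjusted p of 0.947. In MOLM13 the same fit gave 0.063 (SE 0.083), with 2 pairs higher and 2 lower.

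DDIT3 (Entrez 1649, chr12:57516588-57520517), which codes for CHOP, a partner of ATF4 best known for driving cell death under lasting stress, was weakly expressed. It held 1.85 to 4.30 CPM in the 8 MOLM13 libraries and 1.05 to 3.20 CPM in the 8 K562 libraries, which is 6 to 150 counts per library. The MOLM13 changes with Ro were 0.46, 0.59, 0.47 and -1.17 on the log2 scale in pairs 1 to 4, so pairs 1 to 3 were higher and pair 4 lower. DDIT3 was the only measured gene of the set in which the MOLM13 Ro library of pair 4 was the lowest of its group. ATF5 (Entrez 22809, chr19:49928906-49933935), an ATF4 target and itself a transcription factor, was listed at 0 in all 16 libraries. The second entry under its symbol carries the identifier of MIR4751, a miRNA gene that lies inside ATF5 at chr19:49933064-49933137, and was at 0 as well. How reads over overlapping genes were counted is not given in the sources used here, so no level is drawn for ATF5, and 9 genes of the set were measured.

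The feedback and growth-restraint targets varied most in MOLM13. TRIB3 (Entrez 57761, chr20:380760-397559), a pseudokinase that binds ATF4 and dampens its activity, held 8.23, 14.9, 17.1 and 160 CPM in MOLM13 with DMSO and 8.99, 15.3, 16.0 and 110 CPM with Ro. CHAC1 (Entrez 79094, chr15:40953471-40956512), an enzyme that breaks down glutathione, held 1.16, 2.88, 2.33 and 40.5 CPM with DMSO and 2.27, 3.58, 4.54 and 22.6 CPM with Ro. In both genes the pair 4 libraries were many times higher than any other MOLM13 library. The remaining 6 libraries ranged from 8.23 to 17.1 CPM for TRIB3, with pair 1 the lowest, and from 1.16 to 4.54 CPM for CHAC1. For CHAC1 the pair 4 values rest on 1413 and 452 counts, against 8 to 99 counts in the other MOLM13 libraries. K562 libraries held 26.8 to 65.4 CPM of TRIB3 and 0.758 to 4.36 CPM of CHAC1, with DMSO and Ro values overlapping.

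DDIT4 (Entrez 54541, chr10:72273924-72276036), which codes for REDD1, an inhibitor of the growth kinase complex mTORC1, was the 1 member called after Ro in MOLM13 once pairs were taken into account. MOLM13 libraries held 83.9, 110, 156 and 981 CPM with DMSO and 48.9, 109, 119 and 650 CPM with Ro. All 4 pairs were lower with Ro, with log2 changes of -0.78, -0.016, -0.39 and -0.59, while the DMSO and Ro groups overlapped widely. K562 libraries held 40.8, 73.8, 59.5 and 20.8 CPM with DMSO and 40.7, 86.0, 92.2 and 25.9 CPM with Ro, so that pair 4 was the lowest pair there. SESN2 (Entrez 83667, chr1:28259518-28282491), a leucine sensor that also restrains mTORC1, held 24.1, 39.1, 39.3 and 231 CPM with DMSO and 29.3, 58.2, 54.0 and 143 CPM with Ro in MOLM13. In MOLM13 SESN2 was higher with Ro in pairs 1 to 3 and lower in pair 4. In K562 it was higher in 4 of 4 pairs, by 0.21 to 0.34 on the log2 scale, from 77.4, 60.4, 62.1 and 43.4 CPM to 93.5, 75.6, 71.8 and 54.9 CPM. That K562 change was 0.29 (SE 0.13) in edgeR with the block, with a Benjamini-Hochberg adjusted p of 0.947.

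The amino acid synthesis enzymes showed the same high pair in MOLM13. ASNS (Entrez 440, chr7:97851677-97928441), asparagine synthetase, whose promoter element is printed above, held 101, 70.3, 112 and 469 CPM with DMSO and 105, 92.7, 107 and 380 CPM with Ro. PSAT1 (Entrez 29968, chr9:78297125-78330093), the second enzyme of serine synthesis, held 58.5, 81.9, 88.6 and 281 CPM with DMSO and 53.9, 88.0, 76.6 and 282 CPM with Ro. PHGDH (Entrez 26227, chr1:119711934-119744215), the first enzyme of that route, held 66.4, 77.5, 84.1 and 195 CPM with DMSO and 64.9, 73.8, 79.4 and 177 CPM with Ro. Outside pair 4 the MOLM13 values ranged from 70.3 to 112 CPM for ASNS, 53.9 to 88.6 CPM for PSAT1 and 64.9 to 84.1 CPM for PHGDH. Within those pairs the log2 changes with Ro lay between -0.21, for PSAT1 in pair 3, and 0.40, for ASNS in pair 2. In K562 PHGDH was also highest in pair 4, and ASNS and PSAT1 were not. There PHGDH held 27.5, 30.2, 45.1 and 119 CPM with DMSO and 14.3, 26.0, 46.8 and 106 CPM with Ro, whereas ASNS ranged from 140 to 434 CPM and PSAT1 from 36.6 to 121 CPM with pair 1 the lowest.

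**Figure D1:**
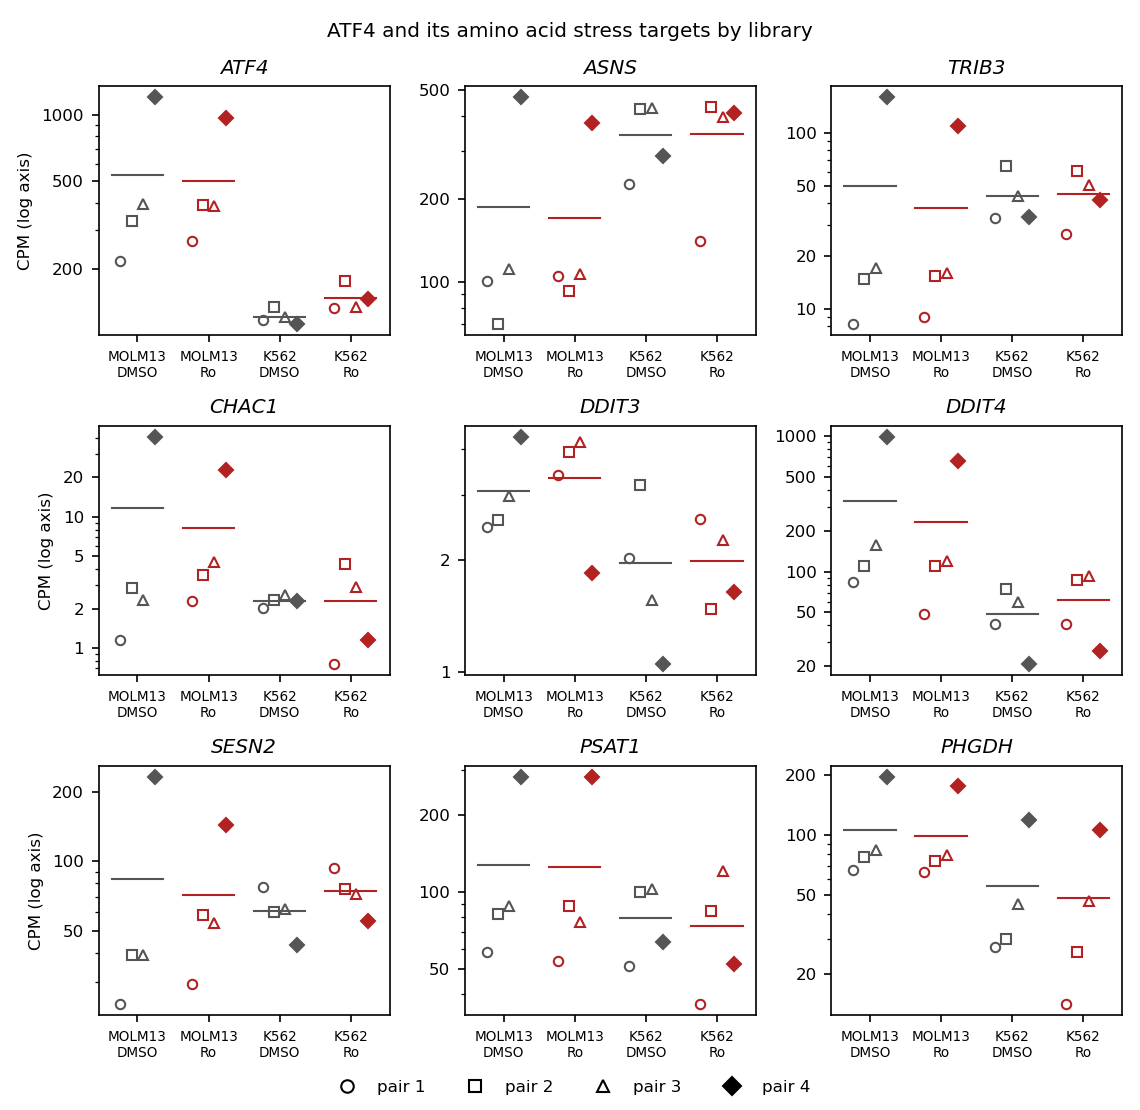
Level of the 9 measured genes in each of the 16 libraries, in CPM on a log axis, grouped by line and treatment, with symbols for the pairs and a line at each group mean. Pair 4 of MOLM13 (filled diamonds) lies above the other pairs with DMSO and with Ro in every gene but DDIT3, as for TRIB3 at 160 and 110 CPM.

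The Ro change of the set was small and unlike from pair to pair. Without the pair term, edgeR called 0 of the 9 measured members in MOLM13, against 0% of 15031 genes tested, and 0 in K562, against 0% of 15227. At an unadjusted p under 0.05 the same fits held 126 higher and 49 lower genes in MOLM13 and 52 higher and 135 lower genes in K562, none of them a member. DESeq2 called 1 gene in MOLM13 and 0 in K562, again no member. In simulated data with log2 changes of 1 up or down, edgeR without the pair term recovered only 37 of 195 changed genes in MOLM13 and 0 of 195 in K562. A lack of calls in that fit therefore cannot show that a member was unchanged. For no member did the DMSO and Ro groups stand apart without overlap, against 1.35% of genes in MOLM13 and 1.24% in K562.

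With the pair as a block, 1 of the 9 members was called in MOLM13. DDIT4 fell by 0.42 on the log2 scale (SE 0.091), with a Benjamini-Hochberg adjusted p of 0.0175 in edgeR and 0.0039 in DESeq2, whose estimate was -0.44. In that edgeR fit 0.938% of genes were called higher and 1.17% lower, so 0 members higher and 1 lower lies near the background. The DDIT4 call held without pair 2 (adjusted p 0.0033) and was lost without pair 1 (0.142), pair 3 (0.129) or pair 4 (0.0504) in edgeR, with estimates from -0.56 to -0.33. Without pair 4, where 1.06% of genes were called higher and 1.39% lower, SESN2 rose by 0.48 (SE 0.091, adjusted p 0.00299 in edgeR). In the same edgeR fit CHAC1 stood at 0.71 (SE 0.23, adjusted p 0.0867) and DDIT3 at 0.55 (SE 0.21, adjusted p 0.153). With pair 4 included those values were 0.13 for SESN2, -0.088 for CHAC1 and 0.046 for DDIT3. The median change of the 9 members was 0.13, 0.24, -0.060 and -0.54 in MOLM13 pairs 1 to 4, while the median of all genes lay between -0.024 and -0.0082. Pair 4, where levels were high with DMSO, had the lowest median change, with 8 of 9 members lower with Ro.

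In K562 the block left 0 of 9 members called, against 0% of genes, although 129 higher and 193 lower genes, SESN2 among them, had an unadjusted p under 0.05 in edgeR. DESeq2 with the block called 2 genes, neither a member. The members' median change was -0.30, 0.023, 0.20 and 0.32 in pairs 1 to 4. Pairs 2 and 4 hold the small DMSO libraries, and with pairs 1 and 3 alone edgeR called 1.43% of genes higher and 1.63% lower. In that fit DDIT4 rose by 0.32 (SE 0.097, adjusted p 0.0383), while ASNS fell by 0.41 (SE 0.11, adjusted p 0.0165) and PHGDH fell by 0.39 (SE 0.11, adjusted p 0.0197). The changes within pairs 1 and 3 were unlike for DDIT4, at -0.0012 and 0.63, and for PHGDH, at -0.94 and 0.051, so each of these calls rests on 1 pair. ASNS was lower in both, at -0.69 and -0.12, and higher in pairs 2 and 4, so its direction depends on the pairs used. The MOLM13 and K562 changes of DDIT4 differed by -0.74 (SE 0.20) in edgeR with the block, with a Benjamini-Hochberg adjusted p of 0.766. Without the MOLM13 pair 4 the difference was -0.68 (SE 0.22). No member was called in this comparison of changes, against 0% of 16224 genes both without and with the block, where an unadjusted p under 0.05 was reached by 177 higher and 41 lower genes and by 499 higher and 476 lower genes. DESeq2 called 0 and 3 genes, no member among them.

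**Figure D2:**
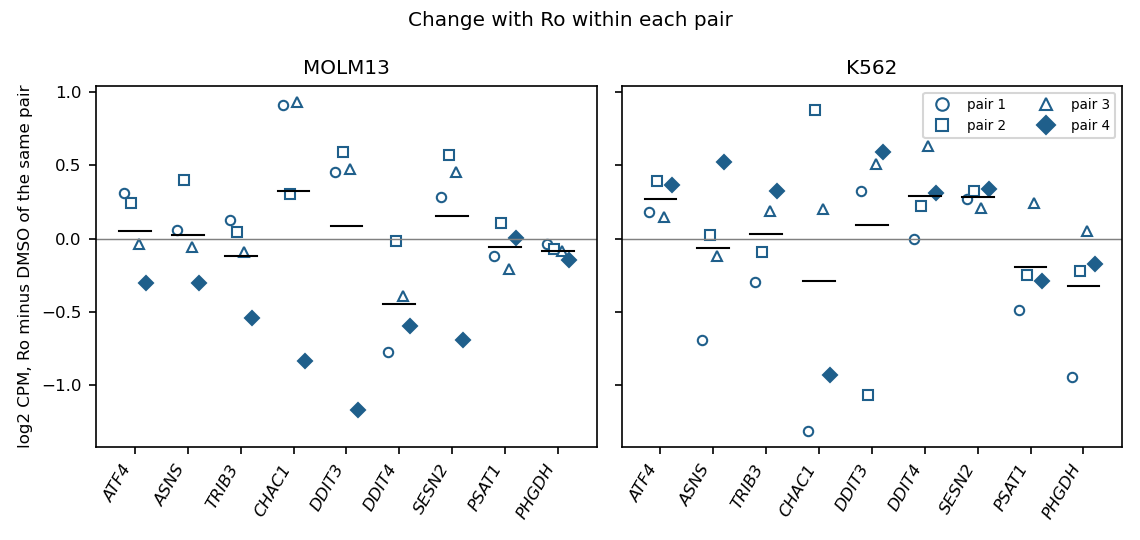
Change with Ro within each pair for the 9 measured genes, as log2 CPM of the Ro library minus that of the DMSO library, with a line at the mean of 4 pairs. In MOLM13 pair 4 (filled) lies at or below 0 for all but PSAT1, at 0.0043, and DDIT4 is below 0 in all 4 pairs. In K562 ATF4 and SESN2 are above 0 in all 4.

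In MOLM13 the largest differences among these genes lay between pairs, a pattern chosen for description after the values were seen. Both MOLM13 libraries of pair 4 were the highest of the line for 8 of the 9 members. Relative to the mean of the other pairs, pair 4 was 11.3-fold higher for CHAC1, 10.1-fold for TRIB3, 7.91-fold for DDIT4, 4.74-fold for SESN2, 4.28-fold for ASNS, 3.76-fold for PSAT1, 3.27-fold for ATF4 and 2.45-fold for PHGDH, while DDIT3 was at 0.981-fold. Among the 15031 genes tested in MOLM13, 0 genes exceeded CHAC1 in this difference, 1 exceeded TRIB3 and 3 exceeded DDIT4. A log2 difference above 1 was seen in 8 of 9 members and in 5.01% of all genes. In edgeR the pair terms together passed the threshold for 8 of 9 members, against 58.7% of genes, with adjusted p from 7.6e-15 for TRIB3 to 3.6e-10 for SESN2 and 0.934 for DDIT3. DESeq2 called the same number of members. Against means that include pair 4, the members lower than the other pairs were 9 of 9 in pair 1, 9 of 9 in pair 2 and 8 of 9 in pair 3, with medians of -1.11, -0.40 and -0.43. In these bulk samples more cells with a high level and a higher level in every cell cannot be told apart.

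Several library measures differed in 1 or both libraries of pair 4. The pair 4 DMSO library was the deepest of MOLM13 with 39978791 counts. The pair 4 Ro library held 21357298, slightly fewer than the pair 3 Ro library with 21413885. The gene with the most counts over all 16 libraries together, which carries no symbol, took 4.11% of the counts with DMSO and 6.29% with Ro in pair 4. In pairs 1 to 3 of MOLM13 its share was 22.3%, 14.6% and 12.0% with DMSO and 24.3%, 15.3% and 9.16% with Ro. Summed over the 8 markers each, K562 markers stood at 8.08 and 8.06 CPM in pair 4 against 4.86 to 7.51 CPM in the other MOLM13 libraries, MOLM13 markers at 762 and 731 CPM against 615 to 715 CPM, and 6 markers of other cells at 3.24 and 4.45 CPM against 4.80 to 7.57 CPM. Of the K562 markers EPOR stood at 5.41 and 5.31 CPM in pair 4 against 1.01 to 3.57 CPM. HBG2 stood at 2.43 and 2.65 CPM against 2.38 to 5.59 CPM, and GATA1 and HBG1 were at 0 in pair 4. The part of these measures in the pair 4 difference was not tested.

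In K562 the highest library stood less far above the lowest than in MOLM13 for 7 of 9 members, and farther for PHGDH (8.38-fold against 3.00-fold) and DDIT3 (3.04-fold against 2.32-fold), a difference that was not tested. The members' median difference from the mean of the other pairs was -0.70, 0.47, 0.22 and -0.40 in pairs 1 to 4. There edgeR called the pair terms for 1 of 9 members, against 0.131% of genes, namely PHGDH with an adjusted p of 0.0263. PHGDH was 3.81-fold higher in pair 4 than in the mean of the other pairs, whereas DDIT4 was at 0.376-fold and 7 of 9 members were lower in pair 4. DESeq2 called 5 of 9 members, ASNS, TRIB3, DDIT4, PSAT1 and PHGDH, against 3.22% of genes. The edgeR call of PHGDH was lost on leaving out any single K562 library but Ro pair 4, without which 6 members were called.

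Other genes of the pathway, taken from lists chosen by known function, were compared between MOLM13 pair 4 and the other pairs. Their median log2 difference to the other pairs is given beside the median of all genes, -0.066. The serine, one-carbon and other amino acid enzymes had a median of 1.45, with 10 of 10 tested genes higher and 8 above 1, among them CTH, which makes cysteine from cystathionine, at 2.83 and GPT2, a mitochondrial alanine transaminase, at 2.20. A mixed list of leucine zipper partners of ATF4 and other stress genes had a median of 1.44, with 10 of 11 higher. It was led by STC2 at 3.05, GDF15, a secreted stress hormone, at 2.76 and CEBPB at 2.55. The leucine zipper factors in it besides CEBPB were JDP2 at 1.82, ATF3 at 0.64 and CEBPG at 0.63. All 12 cytosolic aminoacyl-tRNA synthetases, which charge tRNAs, were higher, with a median of 1.07. Amino acid transporters had a median of 0.91, with 8 of 9 higher, SLC38A2 and SLC7A5 at 1.88 and 1.74 and the cystine carrier SLC7A11 at -0.79. The genes named in this paragraph were picked after their values were seen.

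Other stress branches had medians between -0.87 and 0.28 in the same comparison. The endoplasmic reticulum chaperone list had a median of 0.089, with HSPA5, the main chaperone of that compartment, at 0.079 and HSP90B1 at -0.083, and only XBP1 above 1, at 1.97. The eIF2 kinases and phosphatases, which act upstream of ATF4, had a median of 0.28 and no gene above 1. The other mTORC1 restraints had a median of -0.39, with 2 of 6 higher. SESN1, the p53-linked relative of SESN2, was at -0.52, and NPRL2 was the only one above 1, at 1.16. NRF2 targets had a median of -0.87, with 1 of 8 higher. In K562 pair 4 the medians of the same 8 lists lay between -0.57 for the tRNA synthetases and 0.12 for the NRF2 targets.

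**Figure D3:**
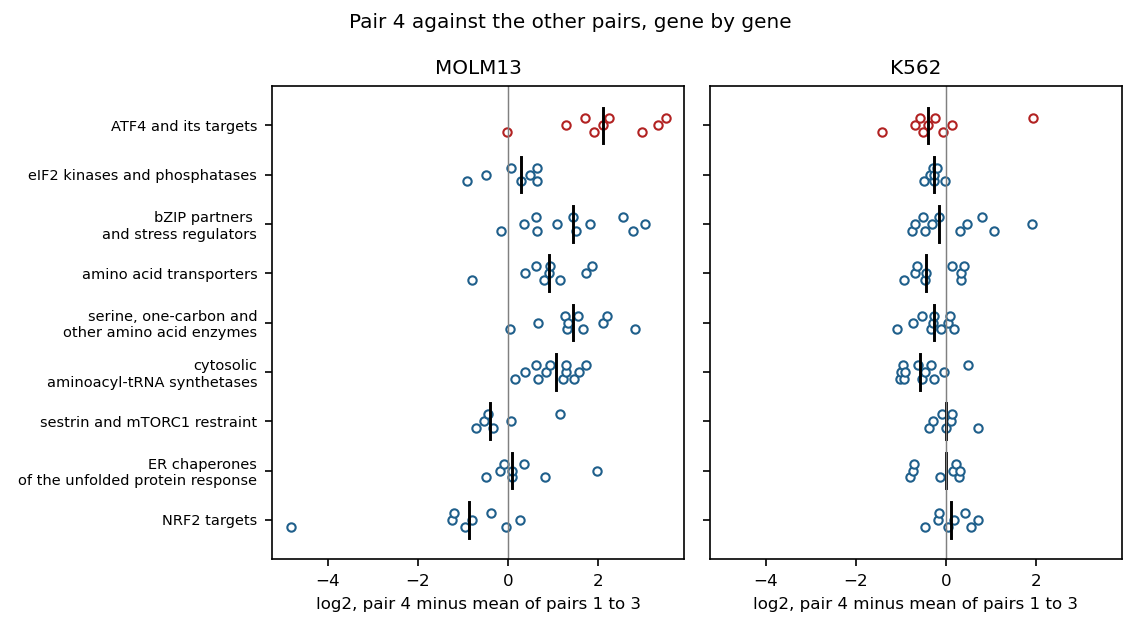
Log2 difference of pair 4 from the mean of pairs 1 to 3 for each tested gene of 9 lists in MOLM13 (left) and K562 (right), with a bar at each list's median. In MOLM13 8 of 9 of ATF4 and its targets (median 2.10, DDIT3 at -0.028), 10 of 10 amino acid enzymes and 12 of 12 tRNA synthetases lie to the right of 0, the chaperones have a median of 0.089, and in K562 the medians lie between -0.57 and 0.12.

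Under Ro the NRF2 list held the most called genes of these lists in MOLM13. Of all genes edgeR with the block called 0.938% higher and 1.17% lower there, with a median change of 0.0015. It called 1 of 11 genes in the mixed list of leucine zipper partners and other stress genes. This was GDF15, which rose by 0.71 (SE 0.19, adjusted p 0.0492) and was higher in 4 of 4 pairs. Of the transporters 1 of 9 was called, SLC7A11, which rose by 0.85 (SE 0.15, adjusted p 0.00226). SLC7A11 also stands in the NRF2 list, of which 6 of 8 genes were called higher, with a median of 0.91. The medians were 0.057 for the mixed list, -0.021 for the transporters and -0.068 for the chaperones. Among the chaperone genes 1 of 8 was called, XBP1, a transcription factor of that response, which fell by 0.59 (SE 0.076, adjusted p 0.000105). None of the 7 eIF2 kinases and phosphatases, 10 amino acid enzymes, 12 tRNA synthetases and 6 other mTORC1 restraints was called in MOLM13, where the genes of smallest p were EIF2AK2 and PPP1R15A, SHMT2 and PYCR1, AARS1 and IARS1, and NPRL2 and SESN1. AARS1 stood at -0.19 (SE 0.068), SHMT2 at -0.16 (SE 0.069) and PYCR1 at -0.18 (SE 0.077), each lower in 4 of 4 pairs. In K562 0 genes of these lists were called by edgeR with the block, and SLC7A11 stood at 0.86 (SE 0.28), ATF3, a leucine zipper partner, at 0.57 (SE 0.23) and PPP1R15B, an eIF2 phosphatase subunit, at 0.48 (SE 0.15), each higher in 4 of 4 pairs. CEBPB, PPP1R15A, SLC1A4, PSPH, SHMT2, WARS1, TARS1, CASTOR1, TSC1, HERPUD1 and HSPA5 were the other genes of smallest p there, with changes from -0.53 to 0.37.

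In the DMSO libraries 3 of 9 members were called higher in MOLM13 than in K562, against 21.1% of 15268 genes higher and 20.3% lower. ATF4 was higher by 2.15 on the log2 scale (SE 0.44, edgeR adjusted p 0.0014), DDIT4 by 2.79 (SE 0.71, adjusted p 0.00628) and CHAC1 by 2.42 (SE 0.90, adjusted p 0.0461). Of these only ATF4 and DDIT4 were called without MOLM13 DMSO pair 4, with 1.38 (SE 0.22, adjusted p 0.000405) and 1.28 (SE 0.36, adjusted p 0.014) in edgeR, and CHAC1 was then at -0.0064. In that fit 21.8% of genes were called higher and 23% lower, and 3 members were called lower in MOLM13. They were ASNS at -1.85 (SE 0.29, adjusted p 0.000327), TRIB3 at -1.67 (SE 0.31, adjusted p 0.00112) and SESN2 at -0.82 (SE 0.24, adjusted p 0.0175) in edgeR. With all 8 libraries TRIB3 and SESN2 had been at 0.22 and 0.47, so leaving out MOLM13 DMSO pair 4 turned their direction. With all 8 libraries kept, edgeR with the pair as a block also turned them, to -0.98 and -0.24. Total-count scaling put TRIB3 at -0.18. Scaling by total counts moved the median difference of all genes from -0.0047 to -0.41 and the calls from 3215 higher and 3098 lower to 2023 higher and 5008 lower. Relative to those medians the difference of ATF4 was still 2.15, and under that scaling ATF4 and DDIT4 were called higher and CHAC1 was not (adjusted p 0.0854 in edgeR).

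**Figure D4:**
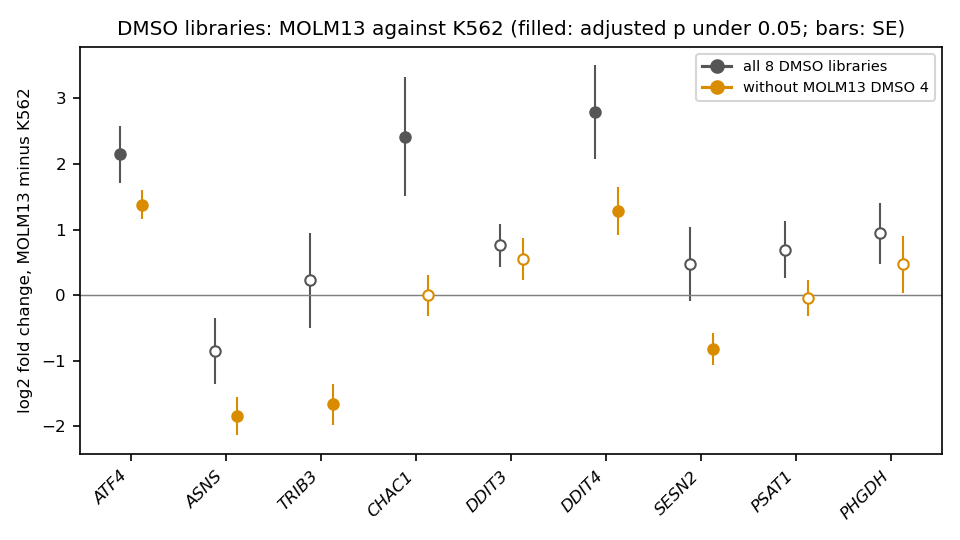
Log2 fold change between the DMSO libraries of MOLM13 and K562 for the 9 measured genes, with all 8 libraries and without MOLM13 DMSO pair 4, as edgeR estimates with SE bars and filled points for adjusted p under the threshold. ATF4 and DDIT4 are filled and above 0 in both, while TRIB3 moves from 0.22 to -1.67.

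Among 7462 other genes compared, those whose 8 changes with Ro varied from pair to pair most like the members' median change were picked. They were HNRNPA1L2 (Pearson r 0.925), SLC27A2 (0.922), SNRNP48 (0.900), LUC7L (0.890) and RNF115 (0.890). Pearson r compares the variation and not the direction. SLC27A2 was lower with Ro in all 8 pairs, from -0.49 to -0.095, while the members' median ranged from -0.54 to 0.32. These r are descriptions over 4 pairs in each of 2 lines, whose libraries share depth and scaling. Their changes ranged from -0.50 to 0.27 on the log2 scale.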

How the data were processed

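The authors trimmed and mapped the reads of 16 3′-end libraries, and the labels name Trim Galore, STAR 2.5.3a, SAMtools 1.5 and build hg38. They deposited whole-number counts per gene for 25221 genes with no normalization. The counting program is not given in the sources used here. Of these genes 1425 carry no symbol and 677 share one, so genes were followed by Entrez identifier, and 0 sample columns were left out. The table held 0 spike-in rows.

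A gene was kept where 4 or more of the fitted libraries held 10 or more counts of it, and was tested with edgeR 4.0.16 (quasi-likelihood F test, TMM scaling) in R 4.3.3, and p-values were adjusted by Benjamini-Hochberg over all genes tested, with a threshold of 0.05. DESeq2 1.42.0, other scalings and other count minimums were alternatives. The edgeR and DESeq2 fits were tested on simulated data with 200 changed genes. For Ro, the difference of Ro effects and the lines, these genes were changed 2-fold up or down. All other genes were left unchanged. Without the block edgeR recovered 37 of 195 tested changed genes in MOLM13 and 0 of 195 in K562. For the difference of Ro effects it recovered 0 of 198, and between the DMSO libraries 19 of 190. Far more genes differed between the real lines, which eases the adjusted threshold, so that last share does not carry over to them. With the block edgeR recovered 180 in MOLM13, 121 in K562 and 90 for the difference of Ro effects. A gene not called without the block may thus still have changed. Smaller changes, such as most of the members' changes with Ro, were not simulated. Log2 changes by pair used a prior count of 2. The labels number the pairs. Deviations of same-numbered DMSO and Ro libraries from their group means correlated over genes at 0.38 to 0.83 in MOLM13 and 0.11 to 0.42 in K562, so values with the pair as a block stand beside the results they change. No 2 replicates agreed within counting noise, since the chi-square per degree of freedom was at least 9.45. Depth, from 3143129 to 43571060 counts, limits DDIT3 and CHAC1, the weakest genes. The genes and lists were chosen with earlier results of these data known, and the pair comparison after the values were seen. All 10 genes are named, and of each list the genes past the threshold or the 2 of smallest p per line. The 5 genes whose changes varied most like the members' median are named too.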

Additional observations from a re-analysis of the deposited data

Results flagged for a closer look

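Within groups of 4 libraries, 14 levels of the members lay farther from the rest than Dixon's 95% critical value allows, which bounds the gap to the nearest library as a share of the group's range. Of 9 genes in each group, 7 were marked in MOLM13 DMSO, 6 in MOLM13 Ro, 0 in K562 DMSO and 1 in K562 Ro. Chance marks about 1 group in 20 only where CPM itself is normally spread. The rule was applied to CPM and not to log2 values, where a single high library stands out less. The number marked therefore depends on the scale. In MOLM13 all 13 were the pair 4 library as the highest. With DMSO these were ASNS at 469 CPM, TRIB3 at 160 CPM, CHAC1 at 40.5 CPM, DDIT4 at 981 CPM, SESN2 at 231 CPM, PSAT1 at 281 CPM and PHGDH at 195 CPM. With Ro they were ASNS at 380 CPM, TRIB3 at 110 CPM, CHAC1 at 22.6 CPM, DDIT4 at 650 CPM, PSAT1 at 282 CPM and PHGDH at 177 CPM. The levels of 1 sample are not independent between genes, so these 13 come from 2 libraries. In K562 Ro the marked value was ASNS in pair 1, the lowest at 140 CPM. No cause was tested.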

How the results depend on the processing

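All changes are log2 values, most members' changes with Ro lie near 0, and no cause of a changed direction was tested. In MOLM13 the count of genes called with Ro was 0 without the block, 1 with DESeq2, 317 with edgeR and the replicate block (1 member) and 260 with DESeq2 and the block (1 member), and it ranged from 0 to 358 genes and 0 to 1 members on leaving out a library or a pair. The block in edgeR and DESeq2 turned ATF4 to 0.063 and 0.050, ASNS to 0.030 and 0.019 and SESN2 to 0.13 and 0.16. DESeq2 with the block put CHAC1 at 0.30, with no adjusted p. PSAT1 was 0.017 with upper-quartile and 0.053 with total-count scaling. Leaving out a library or pair gave MOLM13 ranges of -0.59 to 0.68 for ATF4, -0.86 to 0.86 for ASNS, -1.87 to 1.47 for TRIB3, -1.76 to 1.89 for CHAC1, -0.16 to 0.55 for DDIT3, -1.82 to 0.98 for DDIT4, -0.80 to 1.05 for SESN2, -0.79 to 0.71 for PSAT1 and -0.52 to 0.38 for PHGDH, each end for genes other than DDIT3 coming from leaving out 1 of the pair 4 libraries. In K562 DESeq2 with the block called 2 genes, and pairs 1 and 3 alone gave 418 genes and 3 members. ASNS turned to -0.060 with the block, -0.068 with DESeq2 and the block, -0.41 with pairs 1 and 3, -0.022 with upper-quartile and -0.0095 with total-count scaling. CHAC1 turned to -0.27, -0.31, -0.35, -0.028 and -0.015 under the same settings, and TRIB3 to -0.050 with pairs 1 and 3. K562 ranges on leaving out were -0.26 to 0.26 for ASNS, -0.58 to 0.26 for CHAC1, -0.053 to 0.47 for DDIT3, -0.93 to 0.50 for PHGDH, -0.46 to 0.10 for PSAT1 and -0.16 to 0.29 for TRIB3. For the difference of Ro effects DESeq2 with the block called 3 genes, and DDIT4 ranged from -2.19 to 0.65. Between the DMSO libraries pair numbers did not pair the lines (mean r -0.043). There the block called 5738 genes against 6313 and 2 members against 3, and it turned SESN2 to -0.24 in edgeR and -0.24 in DESeq2 and TRIB3 to -0.98 and -1.0, with TRIB3 at -0.18 under total-count scaling. DESeq2 called 1 member there and gave 4 no adjusted p, and leaving out a library gave 2 to 5 members. The ranges were -0.0064 to 2.77 for CHAC1, -0.045 to 0.94 for PSAT1, -0.82 to 0.78 for SESN2 and -1.67 to 0.58 for TRIB3, the low ends all without MOLM13 DMSO pair 4. For the K562 pair terms DESeq2 called 490 genes and 5 members, no count minimum 89 and 3, a minimum of 50 counts 0 and 0, and leaving out a library 0 to 2491 genes and 0 to 6 members, the upper ends without K562 Ro pair 4. The MOLM13 pair terms called 8 or 9 of 9 members under every setting tried. A prior count of 0.5 moved the 18 mean changes by pair by less than 1 SD. Depth limits CHAC1 and DDIT3, with as few as 8 and 6 counts in a library.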

Other observations

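NRF2 targets, the oxidative stress genes, were lower in MOLM13 pair 4 than in the other pairs for 7 of 8 genes, with a median log2 difference of -0.87 and SRXN1 at 0.26. HMOX1, which degrades heme, held 9.53, 51.4, 64.4 and 2.64 CPM with DMSO and 302, 190, 295 and 6.26 CPM with Ro in pairs 1 to 4, a pair 4 difference of -4.83 on the log2 scale. GCLM, a subunit of the enzyme that starts glutathione synthesis, was at -1.24 and NQO1, a quinone reductase, at -1.19 in the same comparison. With Ro edgeR called 6 of 8 genes higher in MOLM13 with the block and 0 without it, against 0.938% of genes, a median of 0.91, and HMOX1 higher in 4 of 4 pairs, by 2.51 (SE 0.28, adjusted p 2.9e-05). SRXN1, NQO1, GCLM, OSGIN1 and SLC7A11 were the other genes called, with log2 changes from 0.81 to 2.04. The largest of these, OSGIN1, was weakly expressed, with means of 0.566 CPM with DMSO and 2.32 CPM with Ro, so its change rests on few counts. In K562 edgeR called 0 of 8, with 4 of 8 at an unadjusted p under 0.05 without and 5 with the block, HMOX1 stood at -0.048 (SE 0.32), GCLM at 0.76 (SE 0.14) and OSGIN1 at 1.70 (SE 0.33) with the block, the last 2 higher in 4 of 4 pairs.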
